A study of Mus musculus with 13 samples.

Results

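The regions described here are 844 places in the mouse genome where BLIMP1 was mapped in primordial germ cell-like cells (PGCLC) and where no primordial germ cell (PGC) or somatic library listed a summit, the single position at which a ChIP-seq peak is called. Summits of the 12 libraries were joined when 200 bp or less separated them, which gave 152528 merged regions on chromosomes 1 to 19. A member region holds a summit of all 4 PGCLC libraries and none of the other 8. The members were therefore chosen by the presence and absence of summits in all 12 libraries, from 7498 regions shared by the 4 PGCLC libraries, and that pattern is the rule and not a finding. Leaving out a library changed the number most for d6 PGCLC replicate 2, without which 2113 regions met the rule, for the E12.5 PGC female library (1686 regions) and for d2 PGCLC replicate 1 (1331 regions). The regions are sites in shared libraries and not replicates of a condition, so their shares are given with exact Clopper-Pearson 95% intervals that cover counting error only, and no test was made over regions or genes.

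All cells came from C57BL/6 mice or embryonic stem cells homozygous for an EGFP knock-in at the N terminus of BLIMP1, and chromatin was precipitated with an antibody to GFP (ab290). The d2 PGCLC were made from epiblast-like cells cultured for 36 h, were exposed to LIF and BMP4, and were sorted for KIT at day 2. The d6 PGCLC were grown with LIF, BMP4, BMP8a, SCF and EGF and sorted at day 6 for SSEA1 and integrin beta-3. The E12.5 PGC were sorted for SSEA1 from the gonads of embryos obtained by intracytoplasmic sperm injection, with 1 male and 1 female library, so that sex and library cannot be told apart. The somatic libraries, 2 each, came from E16.5 intestinal epithelium sorted for GFP and EPCAM, from retinal photoreceptor precursors sorted for GFP at postnatal day 4, and from plasmablasts, which were B cells given IL-4 and LPS for 3 days and sorted for GFP and CD138. Every group carries the tagged allele, so no group has untagged BLIMP1, and nothing in the labels says that replicates are from different cultures or animals.

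BLIMP1, the product of Prdm1, is a zinc-finger regulator that acts mainly as a repressor and binds DNA with a core of the letters GAAAG. In the embryo it is needed to set aside PGC from the epiblast, where it acts together with PRDM14 and TFAP2C while somatic genes are shut off and pluripotency genes are expressed again. PGCLC are a culture model of the early steps of that process, and E12.5 PGC are later cells that have settled in the gonad. In B cells the same protein drives the change to antibody secretion.

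The libraries listed 15981 and 26198 summits in d2 PGCLC, 75237 and 15248 in d6 PGCLC, 12115 in male and 17369 in female E12.5 PGC, and 7866 to 44141 in the 6 somatic libraries. The cells used, in units of 1e5, were 3.0 and 30 for d2 PGCLC, 3.0 and 10 for d6 PGCLC, 3.3 for male and 3.6 for female E12.5 PGC, and 8.8 to 11 for the somatic libraries, per the labels. The d6 PGCLC replicate 1 list stands apart in length and came from the smaller number of cells, and the read depth, calling threshold and control behind each list are not given in the sources used here. A region without a listed summit in a library may therefore be unbound or below that library's threshold, and these cannot be told apart. The members took up 5.31% and 3.24% of the d2 PGCLC summits and 1.13% and 5.60% of the d6 PGCLC summits.

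A small group of members lies at annotated starts of genes, and their sequences show what such a region holds. Of the 844 regions, 14 overlapped 15 promoter windows, each running from 250 bases before to 50 bases after a start. The windows cover 16457 of the 20665 protein-coding genes, so other members at starts can be missing. For 1 of the 19 chromosomes no start was at hand, so its 28 members could not overlap a window. Of the other 816 members, 3.80% lay within 1 kb of a start, against 13.8% of all merged regions outside that chromosome. The share of all merged regions that overlap a window was not counted. The windows are from RefSeq on GRCm38.p6, the assembly of mm10, and are written 5′ to 3′ on the strand of the gene. Of those with all PGCLC summits inside the window, 4 are printed, chosen after their values were seen, with the stretch between the outermost of the 4 PGCLC summits in capitals. Max encodes the bHLH partner that MYC proteins need to bind DNA, Unk an RNA-binding zinc-finger protein, and Rgs3 a regulator that speeds the switching off of G proteins, while Gm51645 is a gene known here by its symbol only.
Max (chr12:76962199-76962498, minus strand): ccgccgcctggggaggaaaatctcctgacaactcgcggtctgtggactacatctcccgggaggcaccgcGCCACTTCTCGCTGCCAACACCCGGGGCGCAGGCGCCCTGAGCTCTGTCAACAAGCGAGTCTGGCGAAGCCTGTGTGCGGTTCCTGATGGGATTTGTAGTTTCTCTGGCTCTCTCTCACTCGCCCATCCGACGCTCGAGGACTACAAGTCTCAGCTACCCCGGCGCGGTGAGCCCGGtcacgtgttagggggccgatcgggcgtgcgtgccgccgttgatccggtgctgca
Unk (chr11:116030066-116030365, plus strand): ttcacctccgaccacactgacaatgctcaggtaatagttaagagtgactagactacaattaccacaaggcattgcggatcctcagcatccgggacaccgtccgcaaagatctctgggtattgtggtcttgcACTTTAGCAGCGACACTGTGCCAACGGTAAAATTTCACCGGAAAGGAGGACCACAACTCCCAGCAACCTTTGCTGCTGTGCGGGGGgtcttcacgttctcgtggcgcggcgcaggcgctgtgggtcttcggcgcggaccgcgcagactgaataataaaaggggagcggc
Rgs3 (chr4:62619422-62619721, plus strand): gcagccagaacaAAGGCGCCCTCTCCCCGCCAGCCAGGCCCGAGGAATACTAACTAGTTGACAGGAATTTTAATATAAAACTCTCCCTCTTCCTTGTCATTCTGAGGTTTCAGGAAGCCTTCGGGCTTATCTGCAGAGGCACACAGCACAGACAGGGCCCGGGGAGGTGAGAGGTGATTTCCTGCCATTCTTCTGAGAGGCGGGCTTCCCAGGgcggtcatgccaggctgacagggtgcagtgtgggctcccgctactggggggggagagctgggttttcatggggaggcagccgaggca
Gm51645 (chr1:132291180-132291479, plus strand): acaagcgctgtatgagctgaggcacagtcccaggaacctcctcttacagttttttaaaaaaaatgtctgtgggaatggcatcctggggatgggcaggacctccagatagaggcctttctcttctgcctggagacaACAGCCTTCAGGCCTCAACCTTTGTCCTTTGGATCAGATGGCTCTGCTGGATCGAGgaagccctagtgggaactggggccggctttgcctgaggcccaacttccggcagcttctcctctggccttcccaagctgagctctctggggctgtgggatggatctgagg

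At Max the summits lay 181 and 5 bases before the start in d2 PGCLC and 50 and 169 bases before it in d6 PGCLC. The window held 30 CpG dinucleotides, the most of the 15, and no GAAAG on either strand. The nearest summit of another library was a female E12.5 PGC summit 335 bp from the middle of the Max region. At Unk the summits lay 90 and 34 bases before the start in d2 PGCLC and 119 and 110 before it in d6 PGCLC. The single GAAAG of the Unk window, on the printed strand, began 79 bases before the start and so fell between the summits. A plasmablast summit lay 322 bp from the middle of the Unk region, while the nearest E12.5 PGC summit was 8928 bp away. At Rgs3 the summits lay 222 and 238 bases before the start in d2 PGCLC and 120 and 38 before it in d6 PGCLC, and the window had no GAAAG. This is an internal start of Rgs3, 59699 bp from the nearest end of the gene. The Gm51645 summits lay 95 and 62 bases before the start in d2 PGCLC and 60 and 115 before it in d6 PGCLC. Its window held the longer form AGNGAAAG, in which N is any base, on the opposite strand to the one printed, and that match lay just outside the capitals.

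Over the 15 windows, GAAAG on either strand was present in 10, or 66.7% (38.4 to 88.2), against 57.3% of all 32851 windows. AGNGAAAG, which contains GAAAG, was present in 2, or 13.3% (1.66 to 40.5), against 8.63% of all windows. The shares over all windows fall inside the members' intervals, and both sets had a median of 7 CpG dinucleotides. A match is a description of letters and not a binding site, and windows without one say nothing of BLIMP1. The other windows belonged to the protein-coding genes Slc27a1, a fatty acid transporter, and Igfbp1, a carrier of insulin-like growth factors, and to 9 genes known by systematic symbols. In 1 case a single region overlapped the windows of both Gm38446 and Gm51645.

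Most member regions were far from the ends of genes. In 43 members the middle of the region was no more than 1 kb from an end of a protein-coding gene, or 5.09% (3.71 to 6.80), while 16.4% of all merged regions lay that close. Of the rest, 402 members (47.6%) were inside a gene, against 46.5% of all merged regions. Another 399 (47.3%) were outside any protein-coding gene, against 37.1% of all merged regions. The nearest gene end was a median of 21695.5 bp away in the members (95% interval 18793 to 25223), against 12478.5 bp over all regions. At 157 members (18.6%) it was over 100 kb away, against 12.8% of all regions. The width of a region, from its first to its last summit, depends on the merge rule. Its median was 121 bp in the members and 0 bp over all merged regions. In regions with all 4 PGCLC and both E12.5 PGC libraries and no somatic summit it was 114 bp.

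The other regions with all 4 PGCLC libraries fell on both sides of that level. Regions shared with both E12.5 PGC libraries and no somatic library lay within 1 kb of a gene end in 69 of 1596 cases, or 4.32% (3.38 to 5.44), and their median distance was 28028.5 bp (24439 to 30791). Regions with 1 E12.5 PGC library and no somatic library gave 44 of 949, or 4.64% (3.39 to 6.17). Regions shared with E12.5 PGC and somatic libraries gave 849 of 3721, or 22.8% (21.5 to 24.2), with a median distance of 9559 bp (8698 to 10721). Regions shared with somatic libraries only gave 110 of 388, or 28.4% (23.9 to 33.1). At 1 kb the members' interval lies below both of these, whereas the intervals of the sets without somatic summits overlap one another. Within 5 kb the members had 179 regions, or 21.2% (18.5 to 24.1), against 15.7% (13.9 to 17.5) of the regions with both E12.5 PGC libraries and no somatic summit and 35.0% of all merged regions. At that distance the interval of the members lies above that of the set with both E12.5 PGC libraries. Because the presence of a somatic summit defined the sets, this is a description of where they lie. Without d6 PGCLC replicate 1, whose list stands apart, the members' share was 6.04%.

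**Figure D1:**
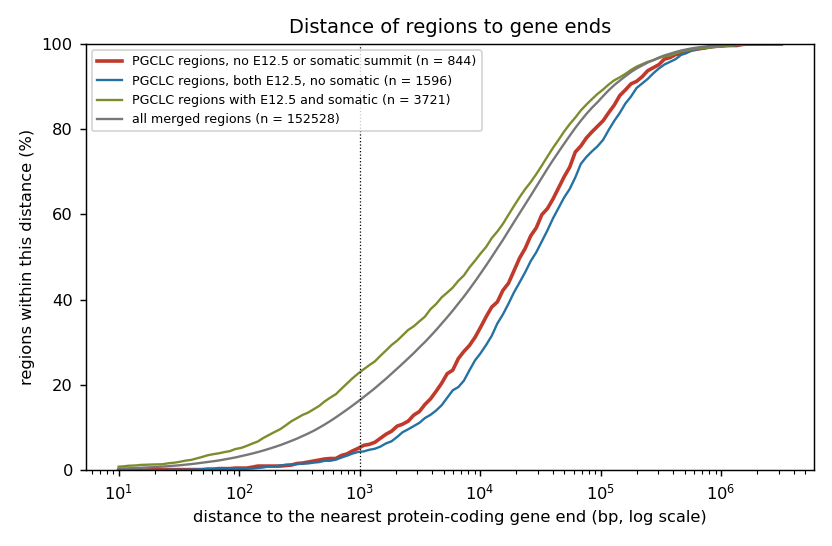
Cumulative share of regions (y axis, percent) whose middle lies within a given distance (x axis, bp, log scale) of the nearest end of a protein-coding gene, for the members, 2 other sets with all 4 PGCLC libraries, and all merged regions. At 1 kb (dotted line) the members stand at 5.09%, regions with both E12.5 PGC libraries and no somatic summit at 4.32%, regions with E12.5 PGC and somatic summits at 22.8% and all merged regions at 16.4%.

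Of the 43 members within 1 kb of a gene end, 22 were nearest to the 5′ end and 12 to the 3′ end, and for 9 the strand of the gene was not in the tables used. They split about evenly by side, with 22 inside the gene and 21 outside it. The nearest was the region of Max, whose middle was 18 bp from the gene end. Next came Rerg, a RAS-like GTPase gene, at 55 bp, the DNA helicase gene Recql at 65 bp, and Nin, which encodes the centrosomal protein ninein, at 87 bp. Letmd1, Slc9a2 (a sodium and proton exchanger), Adgrl4 (an adhesion G protein-coupled receptor of endothelium) and Acss3 followed at 119 to 138 bp. The others of the closest 20 were Selenbp1, Ttyh1, Slc23a4, Olfr1410, Tnf, Igfbp1, Lbhd1, Gm8439, Spint1, Cx3cl1, Kcnh3 and Tinagl1, at 222 to 451 bp. They hold secreted signals (Tnf, Cx3cl1, Igfbp1), a protease inhibitor of epithelia (Spint1) and a potassium channel (Kcnh3), and none of the 20 is on the germ cell list used here. Olfr1410 belongs to the olfactory receptor family, whose similar members make short reads harder to place. When genes of every kind were counted, 77 members (9.12%) lay within 1 kb of an end, against 21.5% of all merged regions. A long non-coding RNA was the nearest gene at 26 of them, or 3.08% of the members, against 4.61% of all regions.

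Distances between PGCLC summits within a member are bounded by the rule, since every gap in a region is at most 200 bp and a larger shift would have left the 4 libraries in separate regions. They are given as a description. The 4 summits spanned a median of 120 bp (quartiles 79 and 178, range 4 to 457). The d2 PGCLC replicates differed by a median of 54 bp and the d6 PGCLC replicates by 62 bp, while single summits of the stages differed by 56 bp (d6 against d2 PGCLC, replicates 1) and 60 bp (replicates 2). Shifts between stages beyond the merge distance cannot appear in these values. Regions shared with both E12.5 PGC libraries spanned a median of 87 bp, and regions shared with E12.5 PGC and somatic libraries 101 bp. All 4 summits fell within 50 bp in 89 members (10.5%), against 376 (23.6%) and 811 (21.8%) of those sets. In those sets a summit of another library can also join PGCLC summits into 1 region, which by the rule cannot happen in a member. Summit height, which bears on how well a position is placed, is not in the lists, and its part in the spread was not tested.

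**Figure D2:**
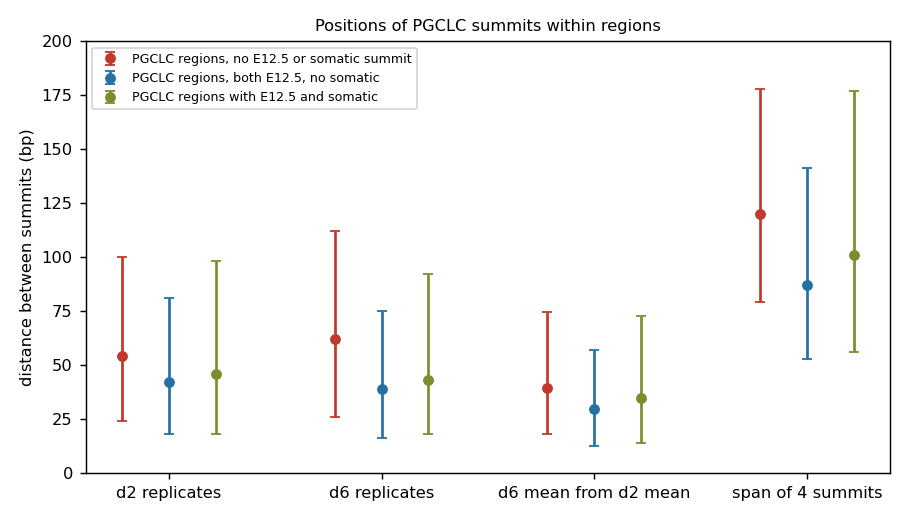
Distance in bp between PGCLC summits within a region, for the members and 2 other sets of regions with all 4 PGCLC libraries, with medians and quartiles. The span of the 4 summits had a median of 120 bp in the members and 87 bp in regions with both E12.5 PGC libraries.

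The tightest member lay nearest to Irs2, which encodes an adaptor of the insulin receptor. Its summits were at 10822042 and 10822041 in d2 PGCLC and at 10822045 and 10822042 in d6 PGCLC, a span of 4 bp. The next tightest lay by Kirrel3 (9 bp), Lrrn2 (10 bp), Rgs5 (12 bp) and Dad1 (13 bp). In the region inside Tet2, whose product oxidises methylated cytosine, the summits were at 133519039 and 133519044 in d2 PGCLC and 133519031 and 133519055 in d6 PGCLC. By contrast, in the region near Prdm14 the d2 PGCLC summits were at 13085160 and 13085206 and the d6 PGCLC summits at 13085034 and 13084969, so that both d2 summits lay above both d6 summits. Each of these positions is as the lists give it and may be off by 1 bp, since the lists do not say whether they count from 0 or 1.

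Members were found on every chromosome from 1 to 19, with 24 on chromosome 19 and 75 on chromosome 6. They were 844 of the 7498 regions with all 4 PGCLC libraries. By chromosome they made up 7.71% of such regions on chromosome 17, the lowest share, and 15.4% on chromosome 6, the highest. The other chromosomes ran from 9.38% to 13.1%. Most stood alone, with 768 members over 50 kb from the next, 32 pairs and 4 groups of 3. This grouping was not compared with other sets of regions. The groups of 3 lay by Rai14, which encodes an actin-associated ankyrin protein, by Aff1, a subunit gene of an elongation complex, by Gins2 and by Lemd2, a gene of the inner nuclear membrane. The 3 regions nearest to Gins2, a replication helicase subunit gene, lie inside its neighbour Gse1. The closest pair, by Ncmap, had a gap of 389 bp between its regions. The 844 members had 780 different nearest protein-coding genes, of which 721 had 1 member, 54 had 2 and 5 had 3. Kirrel3, an adhesion gene of neurons, was the fifth gene with 3 members, and among those with 2 were Slc23a4, Sall1, Ndufaf6, Ncmap, Larp7, Abcc4, Tcf7l1, Ptgis, Nmnat2 and Cstf2t.

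Regulators of pluripotency and of the epiblast were among the nearest genes of the members. A gene counts here when it is the protein-coding gene nearest to at least 1 member, which was true of 3.77% of all 20665 protein-coding genes. By that measure 7 of 24 genes of the naive pluripotency list (29.2%) and 6 of 21 of the primed epiblast list (28.6%) had a member. Otx2 is on both lists, so 1 region counts in each, and without it 6 of 23 naive genes had a member. The lists of cell adhesion genes (7 of 32), the Notch pathway (5 of 25), mesoderm and WNT response (8 of 40) and neural transcription factors (8 of 48) had 16.7% to 21.9%. FGF and receptor tyrosine kinase genes reached 13.9% (5 of 36). Of the 54 list genes with a member, 7 stand on more than 1 list. The counts come with no test, and being nearest depends on how far apart genes stand. With each library left out in turn the naive count ran from 7 to 9 and the primed count from 5 to 9. Both were 9 without d6 PGCLC replicate 2, where the members themselves numbered 2113. The same lists gave 12 of 24 naive and 2 of 21 primed genes for regions with both E12.5 PGC libraries (6.58% of all genes), and 7 of 24 and 9 of 21 for regions with E12.5 PGC and somatic libraries (14.9% of all genes).

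With a fixed distance in place of the nearest gene, 2 of the 24 naive and 3 of the 21 primed genes had a member within 10 kb, against 3.05% of all genes. Within 100 kb both lists had 10 genes, against 11.2% of all genes. At that distance the neural transcription factors had 4 of 48 genes, a smaller share than over all genes. Cell adhesion genes had 5 of 32, the Notch pathway 6 of 25, mesoderm and WNT response 9 of 40, and FGF and receptor tyrosine kinase genes 6 of 36. The counts at these distances do not depend on how far the next gene is. A member inside a gene counts as within the distance even where both ends are farther away, as with the region inside Tet2. The counts therefore depend on gene length.

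**Figure D3:**
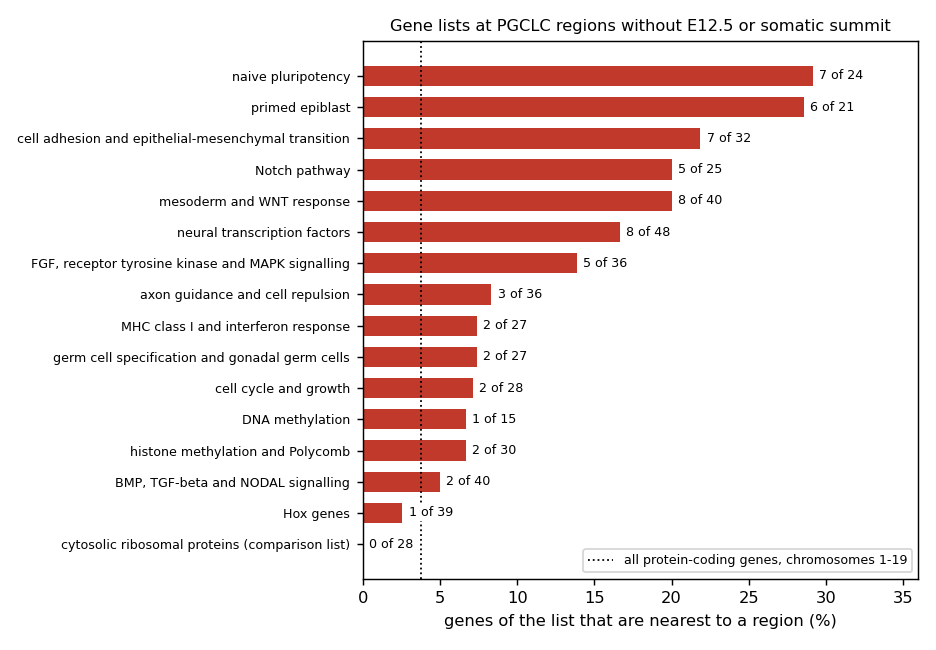
Share of each of 16 gene lists (x axis, percent of genes) that is the nearest protein-coding gene of at least 1 member, with counts at the bars. The dotted line is the 3.77% of all protein-coding genes on chromosomes 1 to 19, which the naive pluripotency list exceeds with 29.2% and the ribosomal protein list, at 0 of 28, does not reach.

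The genes of the naive list with a member were the transcription factor genes Klf4, Tbx3, Sox2 and Otx2, the ligand gene Fgf4, the LIF receptor gene Lifr and Tet2. Klf4 belongs to the naive network and Otx2 to the primed epiblast, where its product holds back entry into the germline. The Lifr region was the nearest to its gene, 4874 bp from the 5′ end, and Fgf4 came next at 10218 bp from the 3′ end. Those of Klf4, at chr4:55501100-55501248, and Tet2 were 25963 and 26093 bp from a gene end. The Tbx3 and Otx2 regions lay 85236 and 86831 bp away and that of Sox2 lay 500558 bp away. Being the nearest gene does not make it the gene a region acts on. Around Klf4, within 50 kb, d2 PGCLC had 5 and 4 summits, d6 PGCLC 7 and 4, E12.5 PGC 1 and 3, intestinal epithelium 0 and 0, photoreceptor precursors 0 and 1, and plasmablasts 7 and 6. Around Lifr the libraries had 5 and 10 in d2 PGCLC, 27 and 3 in d6 PGCLC, 2 and 3 in PGC of E12.5, and between 0 and 3 in the somatic libraries. At both loci, then, E12.5 PGC and some somatic libraries had summits outside the member region. The E12.5 PGC summit closest to the Klf4 region lay 18544 bp away, and the one closest to the Lifr region 3692 bp.

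The primed epiblast genes were Etv5 (an ETS factor downstream of FGF), Grhl2 (an epithelial factor), Lef1 (a nuclear partner of beta-catenin), Otx2, Sox11 and Sox4. Grhl2 and Sox11 were 5994 and 13287 bp from a gene end. The region at Lef1 lay 549 bp from an E12.5 PGC summit, and that at Sox4 538 bp, so both are among the members with another library close by. Etv5 had no E12.5 PGC summit within 50 kb, and had 1 and 6 summits in d2 PGCLC and 19 and 1 in d6 PGCLC. Somatic summits were also present there, with 2 and 4 in intestinal epithelium, 0 in each photoreceptor library, and 3 and 2 in plasmablasts.

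On the germ cell list 2 of 27 genes (7.41%) were nearest to a member, against 3.77% of all genes. The same list gave 5 of 27 for regions with both E12.5 PGC libraries (6.58% of all genes). It gave 4 of 27 for regions with E12.5 PGC and somatic libraries (14.9% of all genes). The 2 genes with a member are both regulators that found the lineage. They are Prdm14, which is needed in the mouse for PGC specification and which keeps pluripotent cells naive, and Prdm1, the gene of BLIMP1 itself, which carries the knock-in in all groups. The Prdm14 region (chr1:13084969-13085206) lay 28341 bp from a gene end. Within 50 kb of Prdm14 the summits numbered 2 and 11 in d2 PGCLC, 16 and 2 in d6 PGCLC, 2 and 4 in PGC of E12.5, 0 in each intestinal and photoreceptor library, and 7 and 9 in plasmablasts. The Prdm1 region (chr10:44468502-44468866) was inside the annotated span of the gene, 31510 bp from its 3′ end. It lay closer, at 9936 bp, to an annotated start of Prdm1. Within 50 kb of Prdm1 the summits numbered 8 and 18 in d2 PGCLC, 46 and 8 in d6 PGCLC, 7 and 6 in PGC of E12.5, and 7 to 27 in the somatic libraries. All 12 libraries thus had summits around Prdm1, of which 1 region met the rule.

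**Figure D4:**
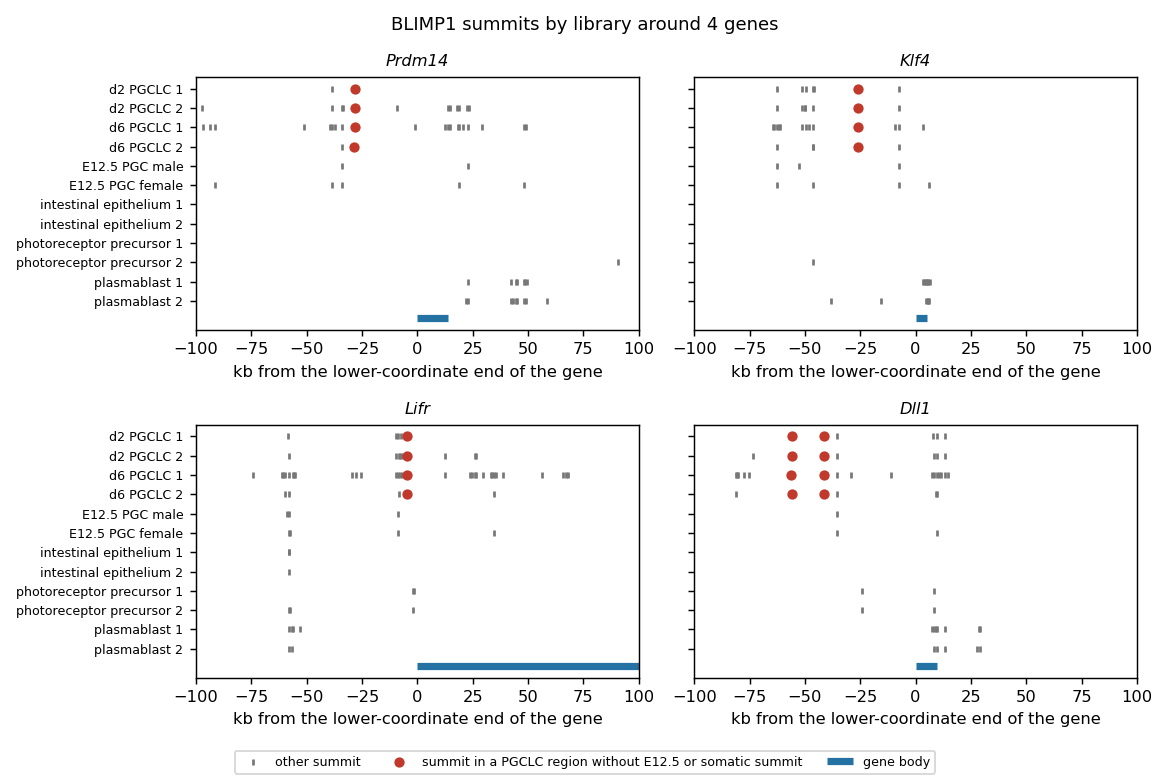
Summits of each of the 12 libraries (rows) around Prdm14, Klf4, Lifr and Dll1, as distance in kb from the lower-coordinate end of the gene. Red points are summits in member regions, gray ticks are other summits and the blue bar is the gene body, and other libraries have summits at the same loci but not at the red points.

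Signalling genes followed. In the Notch pathway, through which neighbouring cells signal, 5 of 25 genes had 7 regions in all. They were the ligand genes Dll1 and Dll4, Rbpj for the DNA-binding effector, Mfng for a sugar transferase that tunes the receptor, and the target repressor gene Hes1. Dll1 and Rbpj had 2 regions each, at 41219 and 55965 bp and at 46068 and 88582 bp from the gene. Dll4 lay closest, at 3638 bp, and Hes1 farthest, at 147238 bp. The Dll4 region had a female E12.5 PGC summit 474 bp and a photoreceptor precursor summit 555 bp from its middle. In the WNT and mesoderm list were the receptor gene Fzd7 (9521 bp), the TCF/LEF genes Tcf7l1, Tcf7l2 and Lef1, and the regulators Foxf1, Msx1, Snai1 and Sp8. Msx1 at 1669 bp and Foxf1 at 1447 bp were the nearest of these, and Tcf7l1 had 2 regions, at 6056 and 12166 bp. The Snai1 product represses E-cadherin, and the Snai1 region was inside the gene, 2031 bp from the 5′ end. Around Snai1 there were 3 and 5 summits in d2 PGCLC, 19 and 8 in d6 PGCLC, 0 and 2 in PGC of E12.5, 0 in each intestinal and photoreceptor library, and 11 and 13 in plasmablasts.

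Fgf4, Fgfr1, Egfr, Spry1 and Etv5 were the FGF and receptor tyrosine kinase genes, and cover a ligand, receptors, an inhibitor and a target factor. The Fgfr1 region lay inside the gene 690 bp from an end, and Spry1 was 26054 bp from its region. The Spry1 region is the one that overlaps the start of 4930594O21Rik, a gene with a promoter window in the set described above. Of other list regions, that of Sox4, 63238 bp from the gene, overlaps the window of 2610307P16Rik. A Cdh4 region, 79901 bp from a gene end, overlaps the window of Gm52541. The cell adhesion list held the E-cadherin gene Cdh1, with a region inside the gene at 731 bp from its end, Cdh2, Cdh4 with 2 regions, Ctnna2, Pcdh17, Snai1 and Vim, the gene of an intermediate filament protein. Cdh2, Ctnna2 and Pcdh17 stand beside gene deserts, and their regions lay 757879, 1592727 and 1434779 bp away. Those of Ctnna2 and Pcdh17 were the most isolated of all members, followed by regions near Gpc5 (1364464 bp), Cntn5 (1077587 bp) and Ndufa4 (930321 bp). The neural transcription factors were Irx1, Irx3, Nkx6-1, Otx1, Otx2, Sox2, Sox6 and Zic1, and most of these regions were also far away, as with Zic1 at 524046 bp.

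Other lists stood nearer to the 3.77% of all genes. The cytokine inhibitors Socs1, at 791 bp, and Socs3, at 5317 bp, were the 2 of 27 genes of the MHC class I and interferon list. The Socs1 region had a photoreceptor precursor summit 787 bp and a male E12.5 PGC summit 844 bp from its middle. Axon guidance gave 3 of 36 (Epha2, Sema6a, Unc5b), against 14 of 36 for regions with both E12.5 PGC libraries. The latter is a larger set, of 1596 regions, which gave 6.58% of all genes. Mycl and Mycn were 2 of 28 cell cycle and growth genes, and Kdm6b and Prdm16 were 2 of 30 histone methylation genes. Bmp4, the inducer of PGC fate, and Id2 were 2 of 40 BMP and TGF-beta genes. Tet2 was 1 of 15 DNA methylation genes and Hoxb13 was 1 of 39 Hox genes, whereas 0 of 28 cytosolic ribosomal protein genes had a member.

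The 780 nearest genes mostly had BLIMP1 summits of the other cells around them. An E12.5 PGC summit lay within 50 kb of 679 of them (87.1%), against 70.7% of all protein-coding genes. A somatic summit lay within 50 kb of 746 (95.6%), against 84.3% of all genes. Neither was present at 14 genes (1.79%), against 12.3% of all genes. Of these 14, a PGCLC summit lay within 50 kb of 10, which include Igfbp1 and Nkx6-1, and the member was farther away at the rest. That summit need not be in the member. The member nearest to Nkx6-1 lay 120973 bp from the gene, and that of Igfbp1 314 bp. At Igfbp1 the summits within 50 kb numbered 1 and 3 in d2 PGCLC and 3 and 2 in d6 PGCLC, and 0 in each of the other 8 libraries. At Sall1, which encodes a zinc-finger repressor and had 2 members, there were 6 and 8 in d2 PGCLC, 24 and 5 in d6 PGCLC, 1 and 1 in PGC of E12.5, and 0 in each somatic library. The d6 PGCLC replicate 1 count is the highest at both of these loci or shares the highest, and its list is the longest.

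Seen from the members, other libraries had summits nearby as well. A summit of any of the other 8 libraries lay a median of 8579.5 bp from the middle of a member. It was within 1 kb at 106 members (12.6%), within 10 kb at 455 (53.9%) and within 50 kb at 753 (89.2%). At 14 members it was within 300 bp, with a minimum of 242 bp, and 735 members had no such summit within 1 kb of either edge. By library, the median distance was 45042.5 bp for male and 29635 bp for female E12.5 PGC, 83331.5 and 60396 bp for intestinal epithelium, 65882 and 47859 bp for photoreceptor precursors and 29322 and 28645 bp for plasmablasts. This order mostly follows the length of the lists, the plasmablast lists being the longest.

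**Figure D5:**
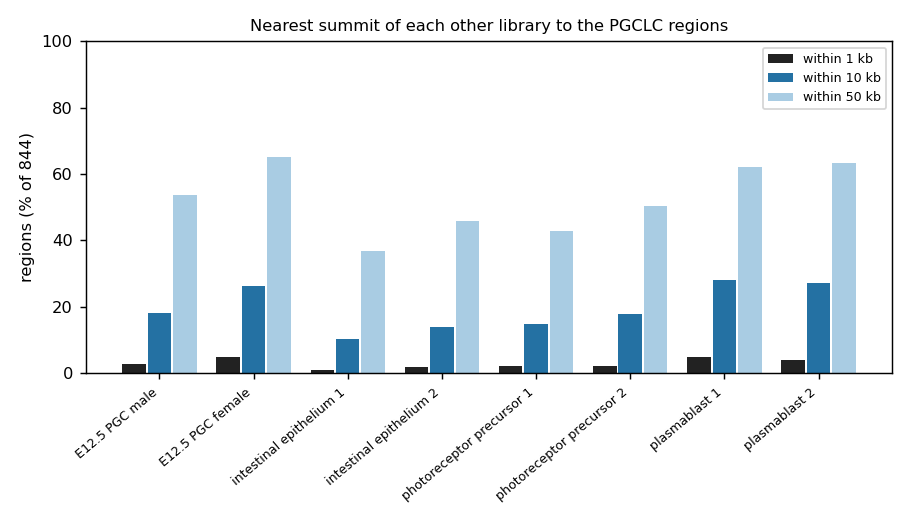
Share of the members (y axis, percent) with a summit of the named library (x axis) within 1, 10 or 50 kb of their middle, for the 8 libraries with no summit in them. Within 50 kb the shares run from 36.8% for intestinal epithelium replicate 1 to 65.3% for female E12.5 PGC.

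List length was set aside by taking, for each library, the share of its own summits that lay 1 to 50 kb from a member. The E12.5 PGC libraries had 5.80% and 6.21%, a mean of 6.00% ± 0.285 (SD, n = 2), and the somatic libraries had 5.65% to 6.37% with a median of 6.12%, a mean of 6.09% ± 0.254 (SD, n = 6). The groups overlap, and the difference of -0.09 percentage points had p = 0.714 in a two-sided exact permutation test over libraries, where 0.0714 is the smallest p this design allows. It was positive, at 0.11 points, without the male E12.5 PGC library and, at 0.12 points, for a flank of 1 to 10 kb, whereas it was -0.31 points for a flank of 1 to 100 kb. With that smallest p, a difference of any size would have missed 0.05, so the test does not show that the groups are alike. The test also took each library as a separate unit, although the somatic libraries are replicate pairs of the same cell types. Its p and the somatic SD therefore do not measure the spread between cell types. The PGCLC libraries had 6.90% and 7.38% in d2 PGCLC and 7.83% and 7.69% in d6 PGCLC. These are above the other 8, but PGCLC summits chose the members, and no test is given for them.

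The rule has an edge in each direction. Just outside it, 1044 regions had all 4 PGCLC libraries and exactly 1 of the other 8. The female E12.5 PGC library was that one in 848 cases and the male in 101, while the somatic libraries gave 4 to 26 each. On the other side, regions with exactly 3 PGCLC libraries and none of the other 8 numbered 492 without d2 PGCLC replicate 1, 98 without replicate 2, 96 without d6 PGCLC replicate 1 and 1290 without replicate 2. Membership thus turned most often on the female E12.5 PGC list and on the d6 PGCLC replicate 2 list. The latter is the shortest of the 4 PGCLC lists, with 15248 summits, but d2 PGCLC replicate 1 is close to it with 15981. The part of list length was not tested. The difference between the E12.5 PGC libraries goes with sex and with the length of the list, and these cannot be told apart. The d6 PGCLC replicates also differ in cell number, and its part in the lists was not tested. Members just inside had an E12.5 PGC or somatic summit as near as 242 bp.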

How the data were processed

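BLIMP1 ChIP-seq summits of 12 libraries were used; the input library was not analysed here. The deposited lists give only the chromosome and position of each summit, library by library, with no score. The submitters' processing notes name MACS2 2.1, Bowtie 1.1.2, cutadapt 1.7.1 and Trim Galore 0.3.7, and mm10. List length may depend on cell number, which differed up to 10 times between replicates per the labels, and on read depth, threshold and control, which are not given in the sources used here.

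Groups came from the labels. Summits at most 200 bp apart were merged by single linkage on chromosomes 1 to 19, and sets were formed by which libraries had a summit in a region. Distances run from the middle of a region to the ends of protein-coding genes of GRCm38.p6. In the counts of list genes within 10 and 100 kb of a member, a member inside the gene also counts. The 17 gene lists were matched by symbol, and 1 of them is not reported here. The members, the lists and the rule for named genes were chosen with earlier results of these data known, so no list is independent support. The rule names the genes with most members, the 20 nearest to a gene end, the 5 tightest and 5 farthest regions, the 5 densest runs and the list genes. The flank comparison was chosen after seeing the data. Tools were Python 3.11.15, numpy 2.4.6, scipy 1.17.1, pandas 2.3.3 and matplotlib 3.10.9. The steps were checked on simulated data. Promoter windows matched 607 of the 780 nearest genes. Alternatives were other merge distances, gene kinds and rules, and leaving out each library. Exon and intron positions were not assigned and motifs were not searched around summits.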

Additional observations from a re-analysis of the deposited data

How the results depend on the processing

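The number of member regions was 2820 when 3 of the 4 PGCLC libraries were enough, and 1793 when 1 E12.5 PGC summit was allowed. It ranged from 848 to 2113 when each library was left out in turn. The share within 1 kb of a gene end was 12.4% when somatic summits were allowed, 21.2% for a window of 5 kb and 9.12% for genes of all kinds, and ranged from 4.40% to 6.24% without each library. The median distance was 15127.5 bp when somatic summits were allowed and 9353.5 bp for genes of all kinds, and ranged from 20706 to 25548 bp without each library. Other alternatives moved these values by less than their error, or a count by less than 1.5 times, including merge distances of 100 bp (664 members) and 500 bp (863 members). Counting starts only undercounts, as starts were at hand for 16457 of 20665 genes. The flank difference between E12.5 PGC and somatic libraries was 0.12 percentage points for 1 to 10 kb and -0.31 for 1 to 100 kb, and ranged from -0.29 to 0.11 without each library. No paired analysis was possible because the regions were compared without a test and the E12.5 PGC libraries carry no shared replicate number. Motif windows of 100 and 300 bp around summits were not run. List length sets which regions can lack a summit, and depth is unknown.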
